A study of Mus musculus with 12 samples.

Results

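The 7 genes described here encode secreted factors or a TNF-family ligand: Gdf15, Gdf3, Tnfsf4, Ccl3, Ccl4, Serpinf1 and Vash2. They are 7 of 53465 genes in a count table of mouse hematopoietic stem cells (HSCs), the rare bone marrow cells from which all blood lineages form, cultured with or without nicotinamide riboside (NR), a B3 vitamer that cells convert to NAD. They were chosen as ligand genes because their counts differed between NR and control cultures, so their NR changes are given below as a description with no test. All 7 passed the filter on low counts. The comparisons of long-term with short-term HSCs did not choose them and were tested. They use the same libraries as the contrasts that did, so they are not independent of the choice.

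The 12 libraries form 4 groups of 3 samples: long-term HSCs (LT-HSCs) with 1 mM NR, control LT-HSCs, short-term HSCs (ST-HSCs) with 1 mM NR and control ST-HSCs. Both populations were sorted as lineage-negative cells with surface Kit, Sca1 and CD150 and without CD48. LT-HSCs were negative and ST-HSCs positive for CD34. All 4 groups grew for 2 days in Stemline II medium with SCF at 100 ng/ml and Flt3 ligand at 2 ng/ml, and the NR was renewed after 24 h. The labels give no strain, genotype or age, and control cultures are named only as control. No label says that the samples of a group came from separate mice or cultures, so the p-values reflect the scatter among these libraries alone, and that scatter may be technical.

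Gdf15 and Gdf3 belong to the TGF-beta superfamily, whose members are secreted as dimers and act through paired serine/threonine kinase receptors. Gdf15 is the exception, since it acts through the brainstem receptor GFRAL together with the kinase RET. Tnfsf4, or OX40 ligand, is a membrane protein of antigen-presenting cells that costimulates T cells through Tnfrsf4. Ccl3 and Ccl4, also called macrophage inflammatory proteins, attract leukocytes, and Ccl3 was described early on as an inhibitor of stem cell proliferation. Serpinf1, or pigment epithelium-derived factor, is a serpin without protease inhibitor activity that restrains blood vessel growth. Vash2, a vasohibin, works with the small protein Svbp as a tubulin carboxypeptidase and is known as a promoter of vessel growth.

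RefSeq promoter sequences of build GRCm38.p6 were matched for 4 of the 7 genes, Gdf15, Ccl3, Serpinf1 and Vash2. For Gdf15 and Vash2, 2 start sites each are listed. The 250 bases before the start site are printed for 2 genes that were higher with NR and 2 that were lower, so that the 2 directions can be compared. They are written 5′ to 3′ on the gene's strand, which is the minus strand for all 4, and capitals mark motif matches. Gdf15 lies at chr8:70632457-70632706, Ccl3 at chr11:83649379-83649628, Serpinf1 at chr11:75422624-75422873 and Vash2 at chr1:190979297-190979546.
Gdf15: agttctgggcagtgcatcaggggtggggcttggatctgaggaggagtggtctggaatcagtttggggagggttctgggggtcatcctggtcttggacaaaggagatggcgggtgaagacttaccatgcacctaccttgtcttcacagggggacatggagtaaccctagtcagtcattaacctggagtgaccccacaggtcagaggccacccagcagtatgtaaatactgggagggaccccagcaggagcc
Ccl3: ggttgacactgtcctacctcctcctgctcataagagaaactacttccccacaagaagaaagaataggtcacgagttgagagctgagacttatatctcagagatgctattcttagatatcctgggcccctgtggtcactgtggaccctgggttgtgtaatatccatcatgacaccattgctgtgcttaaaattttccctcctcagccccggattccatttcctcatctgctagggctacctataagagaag
Serpinf1: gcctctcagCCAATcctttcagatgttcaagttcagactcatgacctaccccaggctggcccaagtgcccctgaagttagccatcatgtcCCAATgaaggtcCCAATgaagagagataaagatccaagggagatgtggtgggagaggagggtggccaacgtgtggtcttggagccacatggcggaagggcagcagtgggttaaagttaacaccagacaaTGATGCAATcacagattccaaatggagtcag
Vash2: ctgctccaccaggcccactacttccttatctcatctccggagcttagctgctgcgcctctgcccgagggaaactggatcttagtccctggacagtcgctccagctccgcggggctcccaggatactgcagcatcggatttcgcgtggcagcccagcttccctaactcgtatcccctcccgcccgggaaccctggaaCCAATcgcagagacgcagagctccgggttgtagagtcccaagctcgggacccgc

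Both strands of these windows were searched for the TATA box (TATAAA), the CCAAT box, the E-box (CACGTG), the AP-1 site (TGANTCA), the cyclic AMP response element (TGACGTCA) and TGATGCAAT, known as a composite site of C/EBP and ATF factors. The NF-kB consensus and a single copy of the p53 consensus unit were searched by name, and the whole set was chosen with the sequences in view. None of the matches overlapped another. The Serpinf1 window held CCAAT at 3 places, with first bases at -241, -160 and -148 from the start site. It also held the composite site at -31 to -23. The Vash2 window held CCAAT at -54 to -50, and those of Gdf15 and Ccl3 held no match. Of 32851 promoter windows of the same length, 33.85% held CCAAT and 0.17% held TGATGCAAT. The second Gdf15 window, which is not printed, held CACGTG at -83 to -78 and CCAAT on the other strand, and the second Vash2 window held TGANTCA at -243 to -237. CACGTG was found in 6.02% and TGANTCA in 6.75% of all windows, and the other motifs searched were in 1.55% (TGACGTCA) to 12.37% (TATAAA). A match describes the letters in the window only.

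Between 24.6 M and 35.5 M counts per library were assigned to genes, and levels are given as CPM, the counts relative to the library total after scaling with TMM factors. Sample 3 of the NR LT-HSCs and sample 3 of the NR ST-HSCs stood apart in reads that fell in no annotated feature, with 28.55% and 26.22%, against at most 16.99% in the other libraries. These 2 libraries also had counts in the most genes, 39290 and 38799, against at most 34834 in the others. Calls lost without them are given for the ligand genes described here and for the named genes of the ligand and receptor lists. Calls of sort markers, of cell type markers other than Pf4 and of the partner gene Rpsa were not tested without these 2 libraries. Means of genes with few counts include them and are not given without them. Of the sort markers, Cd34 differed as the gates did: it averaged 242 ± 21 CPM in NR LT-HSCs, 259 ± 11 in control LT-HSCs, 704 ± 38 in NR ST-HSCs and 627 ± 19 in control ST-HSCs (SD, n = 3), and Kit stood between 1380 and 1550 CPM in the 4 group means. Cd48, which both gates lacked, stood between 0.827 and 5.07 CPM, and Ly6a, which encodes Sca1, was at 32.7 and 37.6 CPM in NR and control LT-HSCs but at 8.04 and 6.24 CPM in NR and control ST-HSCs. Slamf1, which encodes CD150, was at 29.4 and 39.0 CPM in NR and control LT-HSCs (edgeR adjusted p = 0.0802) and fell in ST-HSCs, with 12.1 CPM in NR and 18.9 CPM in control cells, -0.65 ± 0.14 (edgeR adjusted p = 0.00627).

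Gdf15 (ENSMUSG00000038508, chromosome 8), a cytokine that many cells make under stress, had 14.1, 21.9 and 14.7 CPM in NR LT-HSCs, against 4.69, 5.88 and 4.17 CPM in control LT-HSCs. In NR ST-HSCs it had 23.9, 27.6 and 32.4 CPM, against 3.80, 4.61 and 3.77 CPM in control ST-HSCs. Every NR library stood above every control library, and the 6 control libraries of both cell types lay together between 3.77 and 5.88 CPM. The log2 change with NR was 1.78 ± 0.19 (SE) in LT-HSCs, a 3.44-fold higher level, and 2.78 ± 0.20 in ST-HSCs, 6.88-fold. In bulk RNA, a change in the number of cells that express a gene and a change in its RNA per cell cannot be told apart.

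Gdf3 (ENSMUSG00000030117, chromosome 6), which is best known from pluripotent cells and fat tissue and signals through activin receptors with the co-receptor Tdgf1, moved the other way. It had 12.8, 13.5 and 9.92 CPM in NR LT-HSCs, against 30.8, 38.2 and 31.9 CPM in control LT-HSCs. In ST-HSCs the values were 11.5, 12.3 and 14.7 CPM with NR, against 27.5, 29.4 and 26.9 CPM in control. The 6 NR libraries of both cell types overlapped, and none reached the lowest control library. The log2 change with NR was -1.48 ± 0.13 in LT-HSCs and -1.12 ± 0.13 in ST-HSCs.

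Tnfsf4 (ENSMUSG00000026700, chromosome 1) had 27.8, 33.5 and 21.2 CPM in NR LT-HSCs, against 6.80, 8.50 and 6.84 CPM in control LT-HSCs. In NR ST-HSCs it had 46.4, 39.8 and 41.9 CPM, against 3.80, 5.97 and 4.44 CPM in control ST-HSCs. The 4 groups did not overlap at any point of their order: NR ST-HSCs were highest, then NR LT-HSCs, control LT-HSCs and control ST-HSCs. The log2 change was 1.90 ± 0.18 in LT-HSCs, 3.73-fold, and 3.18 ± 0.19 in ST-HSCs, 9.04-fold, so that the cell type with the lower control level had the higher level with NR.

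Ccl3 (ENSMUSG00000000982, chromosome 11) had the lowest CPM of the 7 genes in both control groups and in NR LT-HSCs. It had 1.35, 2.09 and 1.63 CPM in NR LT-HSCs, against 0.70, 1.76 and 0.82 CPM in control LT-HSCs, and the 2 groups overlapped because control sample 2 stood above 2 of the NR samples. In NR ST-HSCs it had 7.14, 4.52 and 7.05 CPM, against 0.85, 0.54 and 0.55 CPM in control ST-HSCs, with no overlap. The log2 change was 0.63 ± 0.37 in LT-HSCs and 3.27 ± 0.39 in ST-HSCs, where the level was 9.64-fold higher. The values rest on few reads: the 6 control libraries held 15 to 53 counts of Ccl3 and the NR ST-HSC libraries 144 to 259. Without control LT-HSC sample 2 the LT-HSC change was 1.15, and without control LT-HSC sample 1 it was 0.39.

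Ccl4 (ENSMUSG00000018930, chromosome 11), which lies in the same chemokine gene cluster, had 6.06, 6.46 and 6.10 CPM in NR LT-HSCs, against 3.14, 3.39 and 2.89 CPM in control LT-HSCs. In NR ST-HSCs it had 8.0, 5.37 and 7.36 CPM, against 1.28, 1.93 and 1.35 CPM in control ST-HSCs. NR libraries of both cell types stood in a common range, while control LT-HSCs lay above control ST-HSCs. The log2 change was 0.98 ± 0.20 in LT-HSCs and 2.19 ± 0.21 in ST-HSCs.

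Ccl3 and Ccl4 are also made by monocytes and macrophages, and 15 markers of these and dendritic cells were measured beside them. The summed level of the list was 398 to 505 CPM in NR LT-HSCs and 371 to 417 CPM in control LT-HSCs, and 479 to 582 CPM in NR ST-HSCs and 341 to 355 CPM in control ST-HSCs. Of the 13 markers tested, 2 (15.4%) were higher with NR in LT-HSCs and 4 (30.8%) in ST-HSCs, against 2.38% and 5.82% of all genes. By the edgeR call 0 of the 13 were lower (median log2 change 0.13 and 0.88). By DESeq2, and likewise at an unadjusted p under 0.05, 1 was lower in LT-HSCs and 0 in ST-HSCs. The sums overlapped in LT-HSCs, and Lyz2 made up most of them, with group means of 352 and 321 CPM in NR and control LT-HSCs and 353 and 268 CPM in NR and control ST-HSCs. The 4 called in ST-HSCs were Cd68, Fcer1g, Tyrobp and Lyz2, and the 2 called in LT-HSCs were Cd68 and Fcer1g. The lysosomal glycoprotein gene Cd68 had 24.5 ± 8.3 CPM in NR ST-HSCs and 5.45 ± 0.48 CPM in control ST-HSCs (SD, n = 3). Tyrobp had 15.6 ± 3.3 and 4.99 ± 0.55 CPM there (edgeR adjusted p = 0.000424), and Fcer1g 121 ± 13 and 62 ± 1.3 CPM (edgeR adjusted p = 2e-05). Cd74, the invariant chain gene of antigen-presenting cells, stood at 4.14 ± 1.6 CPM in NR LT-HSCs and 13.7 ± 6.8 CPM in control LT-HSCs, and at 0.758 ± 0.61 CPM in NR ST-HSCs and 1.5 ± 1.3 CPM in control ST-HSCs, and did not pass (edgeR adjusted p = 0.106 and 0.468). The macrophage marker Adgre1 averaged 0.581 ± 0.52 CPM in NR ST-HSCs and 0.59 ± 0.28 CPM in control ST-HSCs, and the list had 8 members with a mean under 1 CPM in NR ST-HSCs and 9 in each other group. No marker of the list was at 0 in all libraries of a group. The part of such cells in the Ccl3 and Ccl4 values was not tested.

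Serpinf1 (ENSMUSG00000000753, chromosome 11) had 41.1, 57.4 and 38.9 CPM in NR LT-HSCs, against 103.02, 110.45 and 114.79 CPM in control LT-HSCs. In NR ST-HSCs it had 16.1, 19.0 and 20.0 CPM, against 75.0, 74.8 and 83.6 CPM in control ST-HSCs. None of the 4 groups overlapped, with control LT-HSCs at the top and NR ST-HSCs at the bottom. The log2 change was -1.26 ± 0.13 in LT-HSCs and -2.08 ± 0.14 in ST-HSCs. Serpinf1 is known from mesenchymal and epithelial cells. The summed level of 8 stromal and endothelial markers was 90.9 to 101 CPM in NR LT-HSCs and 107 to 112 CPM in control LT-HSCs, and 124 to 138 CPM in NR ST-HSCs and 146 to 149 CPM in control ST-HSCs. Of the 8 markers 1 (12.5%) was lower in LT-HSCs and 2 (25%) in ST-HSCs, against 7.58% and 11.1% of all genes. By edgeR, by DESeq2 or at an unadjusted p under 0.05, 0 of the 8 were higher. Of these markers none was at 0 in all libraries of a group. Their median log2 change was 1.01 in LT-HSCs and 0.09 in ST-HSCs, which differs in sign from the change of the sums. Of the 8 markers, 4 had a mean under 1 CPM in each NR group and 5 in each control group. The part of such cells in the Serpinf1 values was not tested.

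Vash2 (ENSMUSG00000037568, chromosome 1) had 2.50, 2.54 and 2.48 CPM in NR LT-HSCs, against 6.10, 9.23 and 5.67 CPM in control LT-HSCs. In NR ST-HSCs it had 3.48, 3.58 and 2.66 CPM, against 6.59, 7.55 and 9.01 CPM in control ST-HSCs. The control libraries of both cell types overlapped and stood above every NR library. The log2 change was -1.48 ± 0.21 in LT-HSCs and -1.25 ± 0.21 in ST-HSCs.

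**Figure D1:**
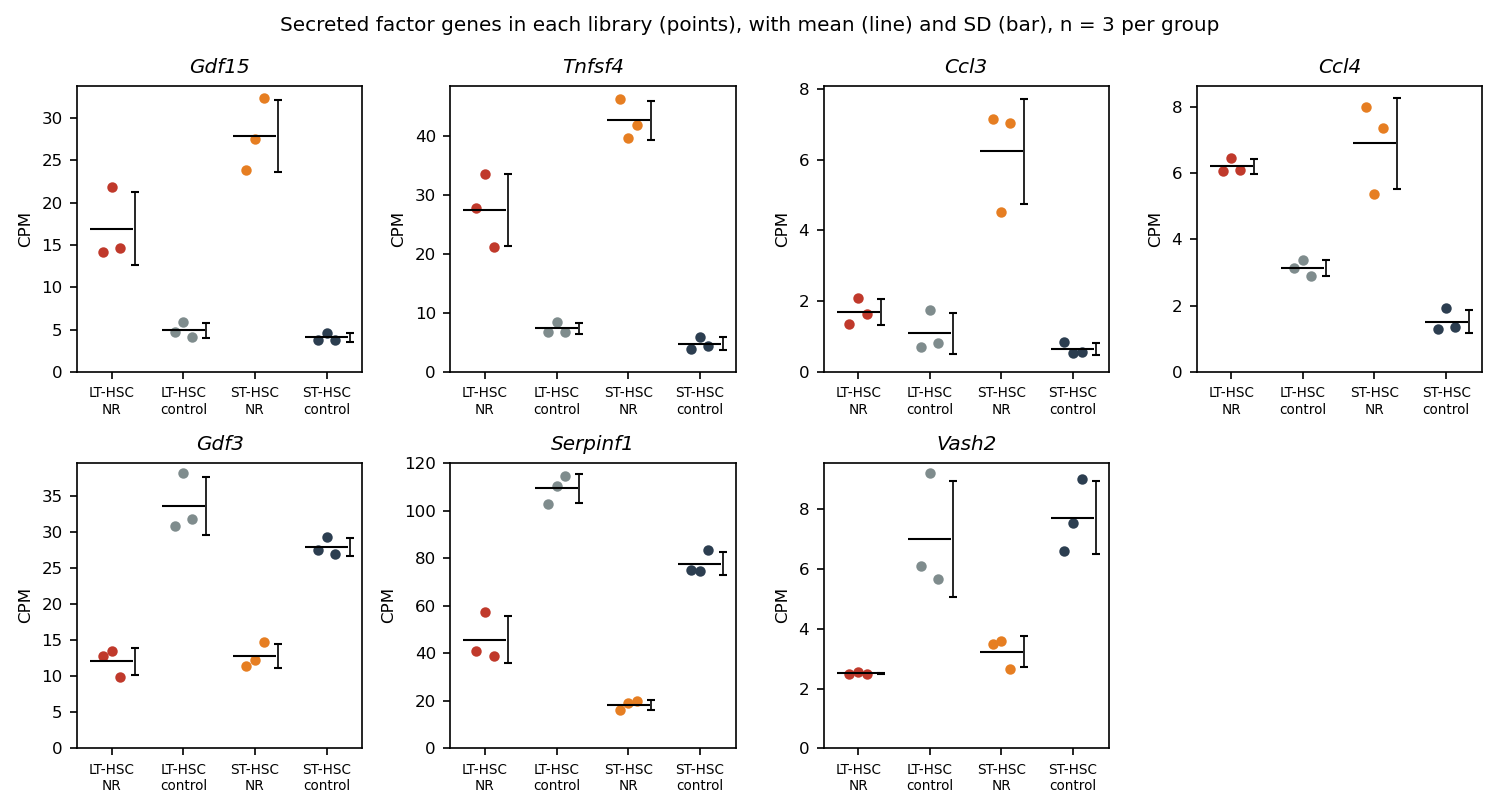
TMM-scaled CPM (vertical axis, from 0) of each gene in the 12 libraries. Points are libraries, lines are means of 3 libraries and bars are SD. Gdf15, Tnfsf4, Ccl3 and Ccl4 stand higher in NR ST-HSCs than in control ST-HSCs, and Gdf3, Serpinf1 and Vash2 lower; Ccl3 alone overlaps between NR and control in LT-HSCs.

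In ST-HSCs the NR and control libraries overlapped for none of the 7 genes, and in LT-HSCs for Ccl3 alone. The share of all genes without such overlap was not computed, so nothing is read from this. Across all 19830 genes tested by edgeR's quasi-likelihood test, 5.82% were higher in NR ST-HSCs and 11.1% were lower at Benjamini-Hochberg adjusted p under 0.05, and 2.38% were higher and 7.58% lower in LT-HSCs. Since the genes were chosen on these contrasts, nothing is read from their count. The split of all calls depended on scaling: 1155 higher and 2193 lower genes in ST-HSCs became 1662 and 1552 with relative log expression factors, and 472 and 1503 in LT-HSCs became 712 and 1192. The median over all genes was -0.03 in ST-HSCs and 0.04 in LT-HSCs and moved by at most 0.08 with the scaling. No member changed direction in either contrast under any alternative tried.

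The NR changes of 5 genes were larger in size in ST-HSCs than in LT-HSCs. The difference of the log2 changes, ST-HSCs minus LT-HSCs, was 2.64 ± 0.52 (SE) for Ccl3, 1.28 ± 0.26 for Tnfsf4, 1.21 ± 0.28 for Ccl4 and 1.00 ± 0.27 for Gdf15. It was -0.83 ± 0.19 for Serpinf1, whose level was lower with NR in both cell types. For Gdf3 and Vash2 the difference was 0.35 ± 0.19 and 0.23 ± 0.29. Over all genes the median difference was -0.05, and 0.0101% of the genes passed adjusted p 0.05 for it. These differences are built from the contrasts that chose the genes and were not tested. Without control LT-HSC sample 2 the difference was 2.11 for Ccl3 and -0.02 for Vash2, and it was 0.18 for Gdf3 without the 2 libraries rich in unassigned reads.

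**Figure D2:**
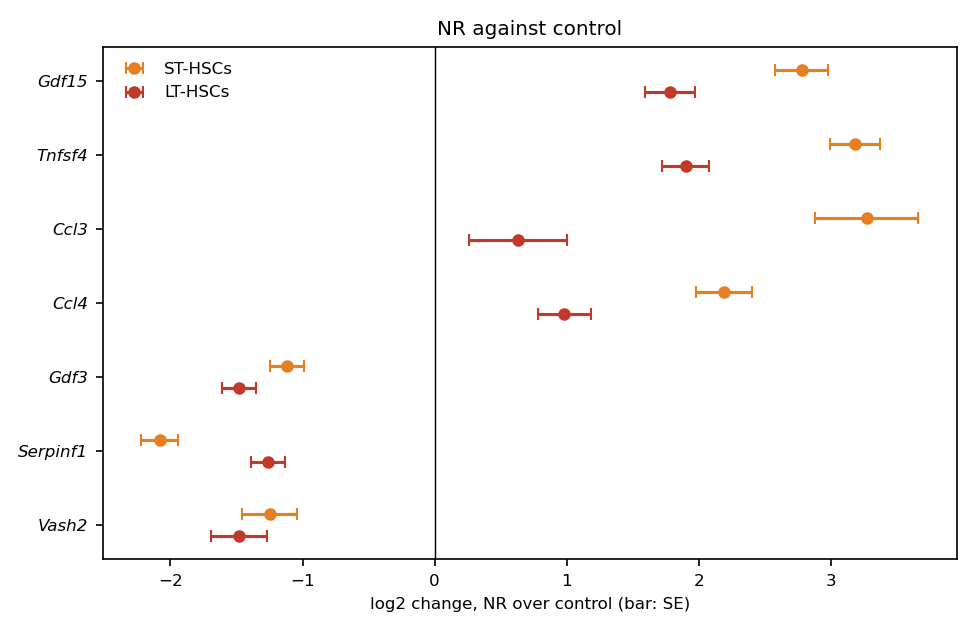
Log2 change of each gene with NR over control in ST-HSCs and in LT-HSCs (horizontal axis; bars are SE of the fit over 12 libraries). Ccl3 has the widest gap, 3.27 in ST-HSCs and 0.63 in LT-HSCs, while Gdf3 and Vash2 lie close together in both cell types.

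LT-HSCs and ST-HSCs were then compared within each culture. In control culture Ccl4 was 2.07-fold higher in LT-HSCs, averaging 3.14 ± 0.25 CPM in LT-HSCs and 1.52 ± 0.36 CPM in ST-HSCs (SD, n = 3), with a log2 difference of 1.05 ± 0.21 (SE; edgeR adjusted p = 0.00859). Serpinf1 averaged 109 ± 6.0 CPM in control LT-HSCs and 77.8 ± 5.0 CPM in control ST-HSCs, a log2 difference of 0.49 ± 0.13 (edgeR adjusted p = 0.0445). The Serpinf1 call ended without any 1 of the 6 control libraries, with differences of 0.46 to 0.55 and edgeR adjusted p between 0.0721 and 0.163, while the Ccl4 call held at 0.0493 or below. These 2 of the 7 genes were called higher in LT-HSCs and 0 lower, against 3.51% higher and 1.5% lower of all genes. Vash2, at -0.14 ± 0.20, was the only one of the 7 with a difference below 0.

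The other 5 genes did not pass in control culture. Tnfsf4 differed by 0.64 ± 0.19 (edgeR adjusted p = 0.0844) and its 2 groups did not overlap. It passed without control ST-HSC sample 2, at 0.84 (edgeR adjusted p = 0.0393), and under 5 other settings. Ccl3 differed by 0.76 ± 0.38 (edgeR adjusted p = 0.408), Gdf15 by 0.28 ± 0.20 (edgeR adjusted p = 0.649) and Gdf3 by 0.27 ± 0.13 (edgeR adjusted p = 0.375). For Vash2 the edgeR adjusted p was 0.859.

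With NR, Ccl3 averaged 1.69 ± 0.38 CPM in NR LT-HSCs and 6.24 ± 1.5 CPM in NR ST-HSCs (SD, n = 3), a log2 difference of -1.88 ± 0.36 (SE; edgeR adjusted p = 0.00625). Serpinf1 averaged 45.8 ± 10 CPM in NR LT-HSCs and 18.4 ± 2.0 CPM in NR ST-HSCs, a log2 difference of 1.32 ± 0.14 (edgeR adjusted p = 5.26e-05). Both calls held under the alternatives run for them, 14 for Ccl3 and 15 for Serpinf1, with edgeR or DESeq2 adjusted p of at most 0.0344 for Ccl3 and 0.00207 for Serpinf1. The alternatives reuse the same libraries. The high Ccl3 values of the NR ST-HSCs also enter a contrast that chose the genes, so the choice may favour its adjusted p. Ccl3 has a mean below 5 CPM and was not tested with the stricter filter. Gdf15 differed by -0.72 ± 0.18 (edgeR adjusted p = 0.0301) and Tnfsf4 by -0.63 ± 0.17 (edgeR adjusted p = 0.0444), both lower in LT-HSCs. In all, 1 of the 7 genes was called higher and 3 lower in LT-HSCs with NR, where 3.8% of all genes were higher and 2.27% lower.

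The calls of Gdf15 and Tnfsf4 with NR were lost when single libraries were left out, while the differences kept their direction. Without both libraries rich in unassigned reads they were -0.54 (edgeR adjusted p = 0.178) and -0.52 (edgeR adjusted p = 0.142). The Gdf15 call ended without NR LT-HSC sample 1 (-0.64), NR LT-HSC sample 3 (-0.63), NR ST-HSC sample 2 (-0.73) or NR ST-HSC sample 3 (-0.63). The Tnfsf4 call ended without NR LT-HSC sample 1 (-0.67), NR LT-HSC sample 3 (-0.48), NR ST-HSC sample 1 (-0.57), NR ST-HSC sample 2 (-0.68) or NR ST-HSC sample 3 (-0.68). Ccl4, Gdf3 and Vash2 differed with NR by -0.16 ± 0.19, -0.09 ± 0.14 and -0.37 ± 0.21, and none of them passed (edgeR adjusted p = 0.901, 0.965 and 0.451). The NR libraries of this comparison, and the control libraries of the one before, also enter the contrasts that chose the genes. Both comparisons are therefore not independent of that choice, and nothing is read from the number of the genes called.

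**Figure D3:**
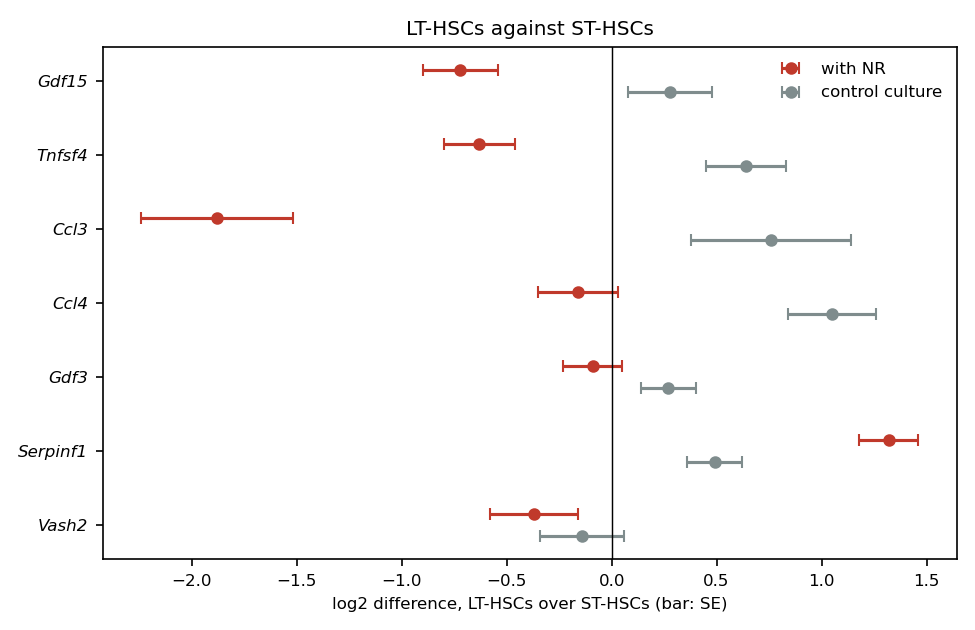
Log2 difference of each gene, LT-HSCs over ST-HSCs, with NR and in control culture (horizontal axis; bars are SE of the fit over 12 libraries). Gdf15, Tnfsf4, Ccl3, Ccl4 and Gdf3 lie below 0 with NR and above 0 in control culture, and with NR the bars of Ccl4 and Gdf3 cross 0. Serpinf1 lies above 0 in both and Vash2 below 0 in both.

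Levels between genes were compared per kilobase of exon. In control LT-HSCs and control ST-HSCs Serpinf1 was highest, at 46.4 and 33.0 CPM per kb, followed by Gdf3 at 13.9 and 11.5 CPM per kb. In NR ST-HSCs Tnfsf4 was highest at 23.2 CPM per kb, followed by Gdf15 at 15.1, Ccl4 at 10.5, Ccl3 at 8.14 and Serpinf1 at 7.79 CPM per kb. In NR LT-HSCs Serpinf1 stayed highest at 19.4 CPM per kb, with Tnfsf4 at 14.9 and Ccl4 at 9.40 CPM per kb. Vash2 was lowest in NR LT-HSCs and NR ST-HSCs, at 0.581 and 0.751 CPM per kb.

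The genes with the most similar pattern were taken by Pearson correlation of log2 CPM over the 12 libraries, among 9974 or 9975 genes with a mean of at least 5 CPM. The libraries form 4 groups, so the coefficients largely carry the group differences, and they are given as a description. Gdf15 was most like the autophagy receptor gene Sqstm1 (r = 0.992, Spearman 0.993) and Tnfsf4 itself (0.984, Spearman 0.944). Tnfsf4 was most like Cdkn1a, which encodes the cell cycle inhibitor p21 (0.992, Spearman 0.993), Ltbp3, which encodes a latent TGF-beta binding protein (0.991, Spearman 0.958), and Phlda3 (0.990, Spearman 0.986). Ccl3 was most like the gelsolin gene Gsn (0.970, Spearman 0.944) and Ccl4 like S100a4 (0.990, Spearman 0.965). Among the genes lower with NR, Gdf3 was most like the pyrophosphatase gene Ppa2 (0.986, Spearman 0.909), Serpinf1 like the linker histone gene H1f0 (0.980, Spearman 0.958) and Vash2 like the ribosomal protein gene Rps21 (0.986, Spearman 0.951).

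Most receptors and partners of the 7 proteins did not pass the test at the RNA level. Of 14 tested, 0 were higher and 1 (7.14%) was lower with NR in each cell type by edgeR. Of all genes, 7.58% were lower in LT-HSCs and 11.1% in ST-HSCs. By DESeq2 0 of the 14 were higher in LT-HSCs and 1 in ST-HSCs. At an unadjusted p under 0.05, 1 of the 14 was higher in LT-HSCs and 0 in ST-HSCs. The one lower was Rpsa, a ribosomal protein that also serves as a laminin receptor reported to bind Serpinf1, at -0.30 ± 0.07 in LT-HSCs (edgeR adjusted p = 0.0192) and -0.29 ± 0.07 in ST-HSCs (edgeR adjusted p = 0.0133). Rpsa has many processed pseudogenes, and its exons overlap a small nucleolar RNA gene, so its counts are uncertain. The lipase gene Pnpla2, a reported Serpinf1 receptor, averaged 121 ± 14 CPM in NR LT-HSCs and 114 ± 9.9 CPM in control LT-HSCs, and 131 ± 1.9 CPM in NR ST-HSCs and 115 ± 2.6 CPM in control ST-HSCs, and did not pass (edgeR adjusted p = 0.663 and 0.184).

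Receptors of several ligands were near the limit of these libraries. Gfral, the Gdf15 receptor, had group means of 0.106 to 0.305 CPM. Its highest values, 0.59 and 0.73 CPM, were in the NR LT-HSC and NR ST-HSC libraries rich in unassigned reads. Ccr1 averaged 0.203 to 0.413 CPM and the scavenging receptor Ackr2 0.21 to 0.623 CPM. Tnfrsf4, the receptor of Tnfsf4, averaged 1.16 ± 0.60 CPM in NR LT-HSCs and 0.872 ± 0.17 CPM in control LT-HSCs, and 1.45 ± 0.059 CPM in NR ST-HSCs and 1.66 ± 0.30 CPM in control ST-HSCs. Ccr3 and Tdgf1 had at most 7 and 4 counts in a library and were not tested.

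Of the activin receptors that serve Gdf3, Acvr1b stood between 5.99 and 8.55 CPM and Acvr2a between 8.34 and 11.8 CPM in the group means, Acvr2b between 2.95 and 3.91 CPM and Acvr1c between 0.161 and 0.604 CPM. Acvr1c and Acvr2a have exons that overlap a gene on the other strand, which this kind of library does not separate. Svbp, the partner of Vash2, averaged 18.5 ± 1.8 CPM in NR LT-HSCs and 19.3 ± 0.89 CPM in control LT-HSCs, and 22.1 ± 1.7 CPM in NR ST-HSCs and 20.2 ± 1.7 CPM in control ST-HSCs. Vash1, the other vasohibin, averaged 0.736 to 1.02 CPM, and Ret, the Gdf15 co-receptor, 0.922 to 1.38 CPM. None of these passed in either cell type. The NR LT-HSC and NR ST-HSC libraries rich in unassigned reads had the highest Acvr1c values, 1.52 and 1.62 CPM. They also had the highest Vash1 values, 2.03 and 1.97 CPM.

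Other genes of the same families were then tested, with the 7 genes left out. The 6 lists of ligands and related factors also hold serpins that act inside cells and, in the angiogenic list, the partner Svbp and the receptors Flt1, Kdr, Flt4, Nrp1, Nrp2, Tek and Tie1. Over these lists, 98 of 163 genes were tested. In ST-HSCs 11 were higher with NR and 6 lower, which is 11.2% and 6.12% of those tested, against 5.82% and 11.1% of all genes. In LT-HSCs 5 were higher and 6 lower, or 5.1% and 6.12%, against 2.38% and 7.58% of all genes. The median change of these genes was 0.14 in ST-HSCs and 0.15 in LT-HSCs, against -0.03 and 0.04 over all genes. Genes with a mean below 1 CPM count in these medians and had the largest LT-HSC changes. Il6 (3.91, mean 0.254 CPM), Il23a (2.73, 0.301 CPM) and Cxcl12 (2.59, 0.358 CPM) led, and none of them was called. Medians without such genes were not computed, so no rise of the lists is read from them. The medians of single lists below count such genes too. The number higher in LT-HSCs was small and moved with single libraries: 2 without NR sample 1, 1 without NR sample 2, 3 without control sample 1, 3 without control sample 2 and 1 without control sample 3. Over the 3 receptor lists, 58 of 73 genes were tested. In ST-HSCs 6 (10.3%) were higher and 1 (1.72%) lower, and in LT-HSCs 3 (5.17%) were higher and 3 lower. The medians were 0.19 and 0.18. Counts of these and of the single lists below are to be set against the same shares of all genes. With relative log expression or upper-quartile factors 1662 and 1753 of all genes were higher in ST-HSCs, against 1155 in the main fit. The receptors higher in ST-HSCs then numbered 11 with either, and those lower numbered 2 without NR ST-HSC sample 2.

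**Figure D4:**
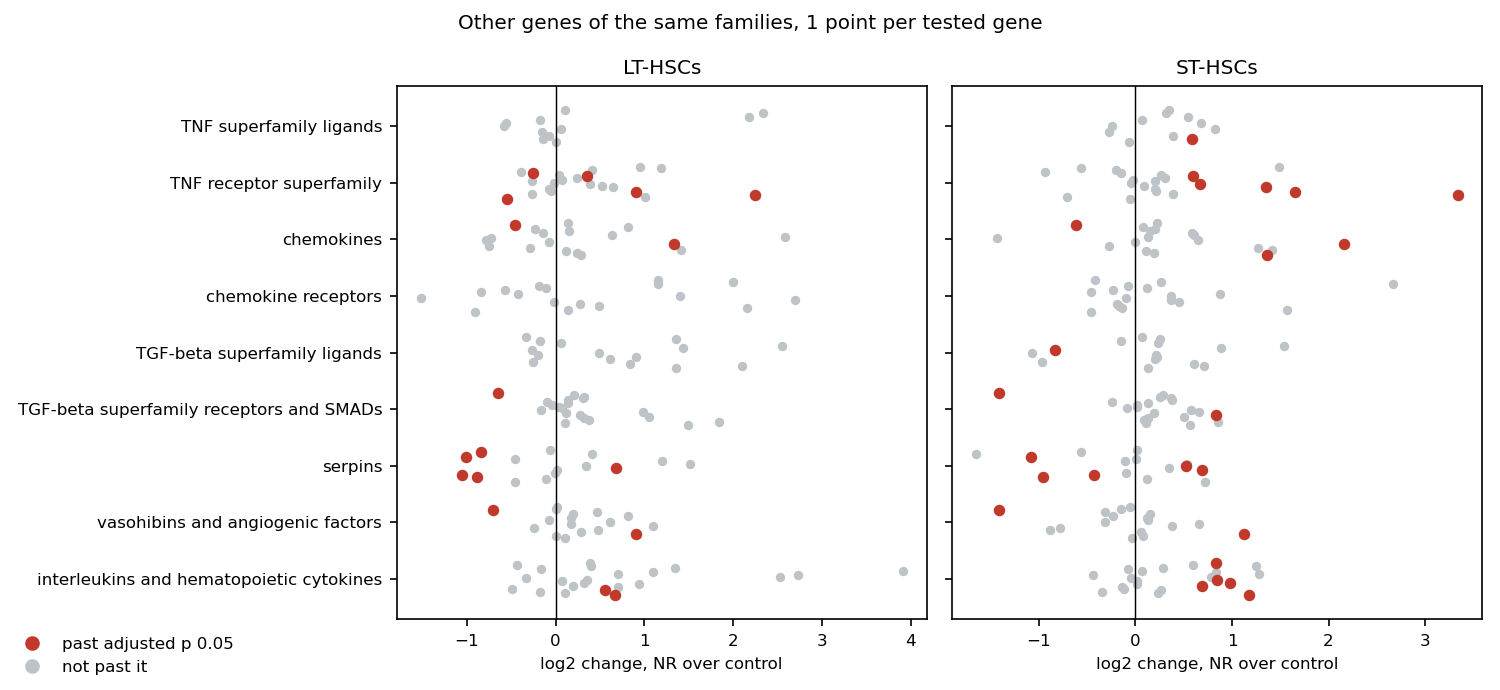
Log2 change with NR over control (horizontal axis) of each tested gene of 9 ligand and receptor lists, in LT-HSCs and in ST-HSCs, without the 7 genes. Each point is a gene, red where it passed adjusted p 0.05. Of the 98 tested genes of the lists of ligands and related factors, 11 were higher and 6 lower in ST-HSCs.

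Among TNF family ligands other than Tnfsf4, 11 of 17 were tested. By edgeR 0 were called in LT-HSCs, where DESeq2 called 0 and 1 was lower at an unadjusted p under 0.05. In ST-HSCs 1 was higher, Ltb, which encodes the membrane partner of lymphotoxin, at 24.0 ± 0.94 CPM with NR and 15.9 ± 1.8 CPM in control (SD, n = 3), a log2 change of 0.59 ± 0.18 (edgeR adjusted p = 0.0355). The Ltb call ended without NR ST-HSC sample 1 (0.56) or 2 (0.61) and without control ST-HSC sample 2 (0.57) or 3 (0.52). The median change of the list was -0.08 in LT-HSCs and 0.35 in ST-HSCs.

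TNF receptors had the most calls of the 3 receptor lists. The list had median log2 changes of 0.20 in ST-HSCs and 0.24 in LT-HSCs. In LT-HSCs 3 (14.3%) of 21 tested were higher and 2 (9.52%) lower, against 2.38% and 7.58% of all genes. In ST-HSCs 5 (23.8%) of the 21 were higher and 0 lower, against 5.82% and 11.1% of all genes. None of these receptors was lower in ST-HSCs by DESeq2 or at an unadjusted p under 0.05 either. Eda2r, an ectodysplasin receptor, was at 24.4 ± 3.5 CPM in NR ST-HSCs and 2.42 ± 0.70 CPM in control ST-HSCs, a log2 change of 3.34 ± 0.19 (edgeR adjusted p = 8.01e-07). In LT-HSCs it was at 18.3 ± 2.0 CPM with NR and 3.84 ± 0.47 CPM in control, 2.25 ± 0.18 (edgeR adjusted p = 3.08e-05). The death receptor genes Fas and Tnfrsf10b were higher in ST-HSCs by 1.65 ± 0.17 (edgeR adjusted p = 3.74e-05) and 1.35 ± 0.22 (edgeR adjusted p = 0.00115), and Fas also in LT-HSCs by 0.91 ± 0.16 (edgeR adjusted p = 0.00384). Cd27, a costimulatory receptor, fell in LT-HSCs, with 60.1 ± 6.1 CPM in NR and 88.3 ± 4.5 CPM in control cells, -0.55 ± 0.08 (edgeR adjusted p = 0.00101).

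Tnfrsf1a, the main TNF receptor of most tissues, was higher in ST-HSCs by 0.60 ± 0.08 (edgeR adjusted p = 0.000291) and in LT-HSCs by 0.35 ± 0.08 (edgeR adjusted p = 0.0155). The Tnfrsf1a call in LT-HSCs ended without NR sample 1 (0.32) or 2 (0.36) or control sample 1 (0.27). More of all genes were called higher in ST-HSCs with other factors, DESeq2 or the stricter filter. The number of TNF receptors higher there was 8 with relative log expression or upper-quartile factors and 9 with DESeq2 or the stricter filter. The number lower in LT-HSCs was 1 with either of these factors, with no filter, in fits of only the 2 groups, without NR LT-HSC sample 2 or 3, without control LT-HSC sample 1, 2 or 3, and without both libraries rich in unassigned reads.

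Of 18 tested chemokines other than Ccl3 and Ccl4, 2 were higher and 1 lower in ST-HSCs and 1 was higher and 1 lower in LT-HSCs, with medians of 0.19 and 0.13. Ccl9, which lies in the same chemokine cluster and attracts myeloid cells, had 42.0, 19.9 and 24.1 CPM in NR ST-HSCs, against 7.61, 5.54 and 6.19 CPM in control ST-HSCs, a log2 change of 2.16 ± 0.35 (edgeR adjusted p = 0.00096). In LT-HSCs Ccl9 had 5.35, 6.70 and 4.92 CPM with NR, against 3.41, 2.36 and 0.89 CPM in control, 1.33 ± 0.38 (edgeR adjusted p = 0.0408). That call ended without NR LT-HSC sample 1 (1.36), 2 (1.23) or 3 (1.42) and without control LT-HSC sample 2 (1.37) or 3 (0.97). Ccl2, a monocyte attractant, was higher in ST-HSCs at 2.58 ± 0.77 CPM with NR and 1.00 ± 0.31 CPM in control, 1.36 ± 0.41 (edgeR adjusted p = 0.036). Its call ended without NR ST-HSC sample 1 (1.41) or 3 (1.19) and without control ST-HSC sample 1 (1.40), 2 (1.58) or 3 (1.14).

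Pf4, a platelet chemokine, was lower with NR in both cell types, by -0.62 ± 0.14 in ST-HSCs (edgeR adjusted p = 0.00704) and -0.46 ± 0.14 in LT-HSCs (edgeR adjusted p = 0.0481). The LT-HSC call of Pf4 ended without NR sample 1 (-0.43) or 3 (-0.35), without control sample 1 (-0.48), 2 (-0.39) or 3 (-0.51), and with relative log expression factors (-0.41). The summed level of 7 megakaryocyte markers, which include Pf4, was 2460 to 3140 CPM in NR ST-HSCs and 3850 to 4150 CPM in control ST-HSCs. In LT-HSCs the sum was 3070 to 4000 CPM with NR and 4210 to 4690 CPM in control. By edgeR 4 (57.1%) of the 7 were lower in ST-HSCs and 3 (42.9%) in LT-HSCs, against 11.1% and 7.58% of all genes. None was higher by edgeR, while DESeq2 called 1 higher in LT-HSCs. Of 17 tested chemokine receptors 0 were called by edgeR in either cell type, as by DESeq2, and at an unadjusted p under 0.05 1 was higher in ST-HSCs and 0 in LT-HSCs.

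TGF-beta family ligands other than Gdf15 and Gdf3 gave 1 call among the 15 of 31 that were tested, with medians of 0.21 in ST-HSCs and 0.61 in LT-HSCs. The LT-HSC median rests on genes with a mean below 1 CPM, all with changes above 0. Ligands above 1 CPM ran from -0.34 (Tgfb3) to 0.06 (Lefty1) there. The inhibin alpha gene Inha fell in ST-HSCs, with 3.41 ± 0.97 CPM in NR and 6.10 ± 0.95 CPM in control cells, -0.83 ± 0.20 (edgeR adjusted p = 0.00977). The Inha call ended without NR ST-HSC sample 3 (-0.62) and without control ST-HSC sample 1 (-0.71). By edgeR 0 passed in LT-HSCs, 0 by DESeq2, and 1 was lower at an unadjusted p under 0.05. Of 20 receptors and SMADs, 1 was higher and 1 lower in ST-HSCs and 0 were higher and 1 lower in LT-HSCs, with medians of 0.22 and 0.18. The co-receptor gene Tgfbr3 fell in ST-HSCs, with 57.7 ± 9.0 CPM in NR and 153 ± 7.3 CPM in control cells, -1.41 ± 0.11 (edgeR adjusted p = 5.45e-06), and in LT-HSCs, -0.65 ± 0.11 (edgeR adjusted p = 0.00241). The BMP receptor gene Bmpr2 was higher in ST-HSCs, 0.83 ± 0.22 (edgeR adjusted p = 0.0203), a call that ended without NR ST-HSC sample 2 (0.77) and without control ST-HSC sample 1 (0.80) or 3 (0.62). The number of receptors and SMADs higher in ST-HSCs was 3 with relative log expression or upper-quartile factors, and the number lower was 2 without NR ST-HSC sample 2.

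Serpins changed in both directions. Of 15 tested besides Serpinf1, 2 (13.3%) were higher and 3 (20%) lower in ST-HSCs, against 5.82% and 11.1% of all genes. In LT-HSCs 1 (6.67%) was higher and 4 (26.7%) lower, against 2.38% and 7.58% of all genes. When the sample number was a block, 2 serpins were higher in LT-HSCs. The number higher in LT-HSCs was 0 without NR LT-HSC sample 1 or 2 or control LT-HSC sample 1 or 3, and the number lower was 2 without both libraries rich in unassigned reads. The number higher in ST-HSCs was 1 without NR ST-HSC sample 1 or 2 or control ST-HSC sample 3. List medians were 0.01 and -0.06. Serpine2, which encodes the thrombin inhibitor protease nexin, averaged 76.1 ± 5.1 CPM in NR ST-HSCs and 161 ± 8.1 CPM in control ST-HSCs, -1.08 ± 0.12 (edgeR adjusted p = 6.26e-05). In LT-HSCs it averaged 64.9 ± 12 CPM with NR and 131 ± 12 CPM in control, -1.01 ± 0.12 (edgeR adjusted p = 0.000276). Serpinb1a, an inhibitor of neutrophil proteases, fell in LT-HSCs, with 57.2 ± 8.4 CPM in NR and 119 ± 9.4 CPM in control cells, -1.06 ± 0.11 (edgeR adjusted p = 0.00013), and has close paralogs with which reads may be shared. Its smaller fall in ST-HSCs, -0.43 ± 0.10 (edgeR adjusted p = 0.0126), ended without NR ST-HSC sample 2 (-0.36) or 3 (-0.34) and without control ST-HSC sample 1 (-0.40) or 3 (-0.40).

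Serpinb10 was lower in both cell types, at -0.96 ± 0.19 in ST-HSCs (edgeR adjusted p = 0.00368) and -0.89 ± 0.19 in LT-HSCs (edgeR adjusted p = 0.00969). Its exons overlap those of Serpinb2, and its LT-HSC call ended without NR LT-HSC sample 2 (-0.86). Serpinb6b was higher in ST-HSCs by 0.69 ± 0.14 (edgeR adjusted p = 0.00396). Serpinb8 was higher in LT-HSCs by 0.68 ± 0.16 (edgeR adjusted p = 0.019), a call that ended without NR LT-HSC sample 1 (0.60) or 2 (0.65) and without control LT-HSC sample 1 (0.69) or 3 (0.59).

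Of 17 angiogenic factors tested besides Vash2, 1 was higher and 1 lower in each cell type, with medians of -0.04 in ST-HSCs and 0.17 in LT-HSCs. Vegfa, the main growth factor of blood vessels, fell in ST-HSCs, with 18.2 ± 4.3 CPM in NR and 48.2 ± 4.9 CPM in control cells, -1.41 ± 0.15 (edgeR adjusted p = 5.72e-05). In LT-HSCs it stood at 23.5 ± 2.4 CPM with NR and 38.5 ± 2.1 CPM in control, -0.71 ± 0.15 (edgeR adjusted p = 0.00883). Col18a1, whose collagen carries the vessel inhibitor endostatin, was higher by 1.12 ± 0.18 in ST-HSCs (edgeR adjusted p = 0.000928) and 0.90 ± 0.18 in LT-HSCs (edgeR adjusted p = 0.00691). With the sample number as a block 2 were higher in LT-HSCs, and with relative log expression or upper-quartile factors 2 were higher in each cell type. The number lower in ST-HSCs was 2 without NR ST-HSC sample 3 and 3 without both libraries rich in unassigned reads, and the number higher in LT-HSCs was 2 without NR LT-HSC sample 3 or control LT-HSC sample 1.

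Of 22 interleukins and hematopoietic cytokines, 5 (22.7%) were higher and 0 lower in ST-HSCs, against 5.82% and 11.1% of all genes. In LT-HSCs 2 (9.09%) were higher and 0 lower, against 2.38% and 7.58% of all genes. None was lower in either cell type by DESeq2 or at an unadjusted p under 0.05 either. List medians were 0.28 in ST-HSCs and 0.39 in LT-HSCs, and the latter includes genes below 1 CPM such as Il6 (3.91 at 0.254 CPM). Il15, a growth factor of natural killer cells, averaged 28.4 ± 5.9 CPM in NR ST-HSCs and 14.5 ± 0.97 CPM in control ST-HSCs, 0.98 ± 0.14 (edgeR adjusted p = 0.000546). Il12a, Il18 and Clcf1, which encodes a cytokine of the interleukin 6 family, were higher in ST-HSCs by 0.69 ± 0.10, 0.85 ± 0.17 and 1.18 ± 0.18 (edgeR adjusted p = 0.000512, 0.00433 and 0.000607). In LT-HSCs Clcf1 was higher by 0.67 ± 0.17 (edgeR adjusted p = 0.0274) and Flt3l, the gene of Flt3 ligand, which the medium also held, by 0.56 ± 0.16 (edgeR adjusted p = 0.0412). The Clcf1 call in LT-HSCs ended without NR sample 2 (0.56) or control sample 1 (0.64), 2 (0.72) or 3 (0.64), and the Flt3l call without NR sample 1 (0.61), 2 (0.49) or 3 (0.61) or control sample 1 (0.50) or 3 (0.44). The number higher in LT-HSCs was 0 without NR sample 2 or control sample 1 or 3, and 1 without NR sample 1 or 3, without control sample 2 or without both libraries rich in unassigned reads. Exons of Clcf1 and of Flt3l overlap those of another gene on the same strand.

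The difference of the NR changes between ST-HSCs and LT-HSCs passed for 0 of the 98 genes of the lists of ligands and related factors and 0 of the 58 genes of the receptor lists by edgeR. DESeq2 called 2 of the 98 higher and 0 lower, and 2 of the 58 higher and 1 lower. At an unadjusted p under 0.05, 5 of the 98 were higher and 3 lower, and 5 of the 58 were higher and 1 lower.

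Calls of 7 of the named family genes ended without the 2 libraries rich in unassigned reads. The log2 changes were then 1.43 for Ccl9, -0.34 for Pf4, -0.82 for Serpinb10 and 0.62 for Flt3l in LT-HSCs, and 1.19 for Ccl2, -0.62 for Inha and -0.34 for Serpinb1a in ST-HSCs. Without the low-count filter Ccl2 did not pass either, at 1.43 (edgeR adjusted p = 0.251).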

How the data were processed

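RNA of 12 libraries was measured. The deposited values are raw read counts per Ensembl gene, made, per the submitters' processing notes, with FastQC 0.11.2, STAR 2.5.0b and HTSeq 0.6.1. Per the labels' protocols, libraries were made from 2.5 ng RNA with SMART-seq v4 and Nextera XT, a kit pair that does not mark strand. Not given in the sources used here are the genome build, annotation release and strand setting. Of 53465 genes, 53274 had a symbol in GENCODE M21. Reads in no feature (8.69% to 28.55%) and ambiguous reads (3.3% to 4.38%) stayed out of library sizes and tests. Intervals were not computed, and the SE and SD cover the spread between samples only.

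Counts were fitted with edgeR 4.0.16 (R 4.3.3; TMM factors, quasi-likelihood, two-sided, all 12 libraries, 4 group means, 8 residual degrees of freedom, biological coefficient of variation 0.402) after filterByExpr (minimum count 10, minimum total 15), which kept 19830 genes. Adjusted p are Benjamini-Hochberg values over those genes, with a threshold of 0.05. The fit was tested on simulated data. GENCODE M21 names no gene that overlaps any of the 7, and their exon lengths are from it. Replicates differed by more than counting noise (chi-square per degree of freedom 5.9 to 35.1).

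The 7 genes and all lists were chosen with earlier results of these data known. Lists were TNF ligands and receptors, chemokines and their receptors, TGF-beta ligands and receptors with SMADs, serpins, angiogenic factors, interleukins and hematopoietic cytokines, receptors and partners of the 7, and cell type markers. The text names the 7, the partners except 1 that is not reported here, up to 4 called genes per list and cell type with the smallest p and a mean of at least 1 CPM, and per member the 3 genes most like it, of which some are given.

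Samples sharing a number deviated together between NR and control LT-HSCs (r = 0.49, 0.24 and 0.50) and between NR LT-HSCs and NR ST-HSCs (0.63, 0.33 and 0.60), so there the numbers may pair the samples. In NR and control ST-HSCs this was unclear (0.21, -0.01 and 0.24, against -0.29 to 0.08 for unlike numbers). It was not seen in control LT-HSCs and control ST-HSCs (-0.01, 0.03 and 0.11). The pairing comes from the data and the shared numbers, since no label says what a number marks. The main fit and its p-values leave it out, and it enters only as the block among the alternatives. Reads in no feature also rose with the number, from 9.41% to 28.55% in NR LT-HSCs and from 9.17% to 26.22% in NR ST-HSCs. Their part in these r values was not tested.

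Alternatives were DESeq2 1.42.0, upper-quartile or relative log expression factors, no filter, a mean of at least 5 CPM, a block for the sample number, only the 2 groups compared, the share of reads in no feature as a covariate, leaving out the 2 libraries richest in such reads, and leaving out each library in turn with the genes tested kept.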

Additional observations from a re-analysis of the deposited data

How the results depend on the processing

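For the 7 genes and the numbers called over the ligand and receptor lists, 623 results under alternatives counted as the same. Of the rest, 19 lost and 6 gained a call, 21 values moved and 1 reversed. The cause was not tested. A tested difference was the same if it stayed on its side of the threshold and, where called, kept its direction. An untested change was the same if it kept its direction and moved by less than the SD within groups. A number called was the same if it stayed within a set ratio. The LT-HSC minus ST-HSC difference with NR was -0.73 for Gdf15 and -0.64 for Tnfsf4 in fits of only these 2 groups, and -0.54 and -0.52 without both libraries richest in unassigned reads, with no call. With 1 library left out it ran from -0.94 to -0.63 for Gdf15 and from -0.79 to -0.48 for Tnfsf4. In control culture Tnfsf4 gained a call with DESeq2 (0.65), no filter (0.68), the stricter filter (0.65), the replicate block (0.64, edgeR adjusted p = 0.0257) and without both libraries (0.68), over 0.51 to 0.84 with 1 library left out and adjusted p of 0.00268 to 0.323 over all alternatives. Serpinf1 ran from 0.46 to 0.55 with 1 control library left out. The Ccl3 change in LT-HSCs ran from 0.39 to 1.15. The ST-HSC minus LT-HSC difference of changes ran from 2.11 to 2.89 for Ccl3, from -0.93 to -0.61 for Serpinf1 and, reversed without control LT-HSC sample 2, from -0.02 to 0.41 for Vash2, and was 0.18 for Gdf3 without both libraries. Genes of the lists of ligands and related factors higher in LT-HSCs numbered 8 with DESeq2, 9 with the stricter filter and 1 to 4 with 1 library left out, and those lower numbered 3 without both libraries. Receptors higher in LT-HSCs numbered 5 with DESeq2 and 6 with the stricter filter. In ST-HSCs they numbered 11 with either other factors, 12 with DESeq2, 13 with the stricter filter and 10 with the covariate. Receptors lower there numbered 2 with the covariate and 1 to 2 with 1 library left out. The number of all genes higher rose too. In LT-HSCs it went from 472 of 19830 to 1137 of 12525 with DESeq2 and 1261 of 10475 with the stricter filter. In ST-HSCs it went from 1155 of 19830 to 2049 of 13678 with DESeq2 and 2003 of 10475 with the stricter filter. The block changed no other call of the 7 genes; it moved serpins and angiogenic factors higher in LT-HSCs to 2 each, and TGF-beta receptors higher in ST-HSCs to 2. Ccl3 and Ccl4 were not tested with the stricter filter. Ccl3, with 15 to 61 counts in 9 libraries, is limited by depth.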
